A study of Mus musculus with 6 samples.

Results

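Ifng, its receptor chains Ifngr1 and Ifngr2, and the inhibitors Socs1 and Socs3 were followed in single CD8 T cells from B16-OVA melanomas and their draining lymph nodes (LN). These 5 genes, of 32285 in the deposited tables, were chosen by name as the ligand, the receptor and 2 feedback genes of the IFNγ pathway, and each was read in 4 libraries, by Tcf7 UMI and by Ifng UMI. Control mice were CD8-Cre Rosa26Tomato, and CD8-IFNγRKO mice were CD8-Cre IFNgR1flox/flox Rosa26Tomato, so that Cre and the Tomato reporter were shared and the genotypes differed in the floxed Ifngr1 alleles. All mice carried tumors of B16-OVA, a mouse melanoma line that expresses ovalbumin, and were sampled on day 12. The labels give no age. Cells positive for CD45, CD3, CD8 and Tomato were sorted, and the cells of 3 mice went into each library of tumor or LN and of either genotype. Cre was driven from a CD8 promoter, so other cells of the CD8-IFNγRKO mice kept an intact receptor gene.

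After filtering, 8610 and 7046 cells of the CD8-IFNγRKO and control tumors and 6731 and 6639 cells of the corresponding LN were used, with 93449793, 58264235, 28841136 and 29918156 UMIs. The median depth was 9376 and 6268.5 UMIs per cell in the CD8-IFNγRKO and control tumors against 3863 and 4051 in the LN. Cd8a and Cd8b1 together held 1924 to 2638 CPM (the UMIs of a gene per 1000000 UMIs of the cells) in every library. The 10 myeloid markers summed to 273 and 336 CPM in the tumors, mostly Cst3 (208 and 235 CPM) and Fcer1g (48.1 and 65.3 CPM), then Cd74 (8.83 and 27.0 CPM) and H2-Ab1 (7.39 and 6.54 CPM), with Lyz2, Csf1r, Adgre1 and the C1q genes each at 0.772 CPM or less, and the 4 melanoma markers to at most 3.18 CPM. Between 51 and 82 barcodes were shared by any pair of libraries, at most 1.24% of the smaller one. With 1 library per group, no difference between genotypes or tissues has a replicate check. Intervals are 95% and cover counting error only, and no p value was computed.

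IFNγ binds IFNγR1, IFNγR2 joins the complex and is needed for the signal, and the kinases JAK1 and JAK2 then phosphorylate STAT factors, which drive genes such as Irf1 and the guanylate-binding proteins. SOCS1 and SOCS3 are induced by cytokines and end the signal: SOCS1 blocks the JAKs of the IFNγ receptor, and SOCS3 acts mainly on receptors of the gp130 family. Activated and memory CD8 T cells make IFNγ quickly after the T cell receptor (TCR) is engaged, whereas naive cells do not.

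In RefSeq, build GRCm38.p6, Ifngr1 (ENSMUSG00000020009) spans chr10:19591949-19610229 and Ifng (ENSMUSG00000055170) chr10:118441046-118445894. Socs3 (ENSMUSG00000053113) spans chr11:117966079-117970336, Socs1 (ENSMUSG00000038037) chr16:10783808-10785536, and Ifngr2 (ENSMUSG00000022965) chr16:91547059-91564007. The windows from 250 bases before to 50 bases after the start of each gene were searched on both strands for the STAT element GAS (TTCNNNGAA), present in 8.30% of 32851 such windows, and for the interferon element ISRE (GAAANNGAAA), present in 3.44%. The window of Socs1 held 2 overlapping ISRE matches, beginning 83 and 77 bases before the start, and that of Socs3 held 1 GAS match, 154 bases before the start used and inside the annotated gene. Ifng had 1 GAS match, 249 bases before its start. The windows of Ifngr1 and Ifngr2 did not contain these letters. The sequences of the feedback genes, the members with a match near the start that also rose beside Tcf7, are given from RefSeq, with the matched letters in capitals. The first is the 250 bases upstream of Socs1 (chr16:10785537-10785786, minus strand) and the second the GAS match of Socs3 with 10 bases on each side (chr11:117969502-117969530, minus strand).
Socs1: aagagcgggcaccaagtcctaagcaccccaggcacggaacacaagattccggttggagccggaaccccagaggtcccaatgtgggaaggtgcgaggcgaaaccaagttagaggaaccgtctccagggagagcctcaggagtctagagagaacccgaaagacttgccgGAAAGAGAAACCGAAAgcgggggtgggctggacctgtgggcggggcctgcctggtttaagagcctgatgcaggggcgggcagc
Socs3: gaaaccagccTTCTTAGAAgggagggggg

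Ifngr1, the gene targeted by Cre, was lower in CD8-IFNγRKO cells of the tumor but was still read in most of them. Its level was 238 CPM (235 to 241) in CD8-IFNγRKO and 721 CPM (714 to 728) in control tumors, and 137 CPM (132 to 141) and 182 CPM (177 to 186) in the LN. The level was thus 3.03-fold lower in the CD8-IFNγRKO tumor (log2 ratio -1.60, -1.62 to -1.58), and in the LN the log2 ratio was -0.41 (-0.47 to -0.35). With every cell thinned to 1600 UMIs, Ifngr1 was detected in 34.4% of tumor cells and 18.7% of LN cells from CD8-IFNγRKO mice, against 69.3% and 23.0% from control mice. Without thinning, the tumor shares were 80.7% and 92.0% and the LN shares 38.9% and 46.9%. The libraries were made from 5′ ends of transcripts, and whether these reads fall on the floxed part is not given in the sources used here, so the remaining UMIs do not tell intact from deleted transcripts.

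Of the members, 4 of 5 passed the filter in the comparison of tumor genotypes (a mean of 10 CPM and 20 UMIs over both sides), and Ifngr1 alone lay beyond a log2 ratio of 0.5, on the lower side. Over all 7498 genes that passed, 5.0% were lower and 7.72% higher by that rule. In the LN all 5 members passed and 0 lay beyond the fold, beside 0.407% of genes lower and 0.231% higher.

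Ifngr2, the signaling chain, was near 0 in tumor cells of both genotypes and readily found in LN cells. The tumors held 47 Ifngr2 UMIs in CD8-IFNγRKO cells (0.503 CPM, 0.370 to 0.669) and 27 in control cells (0.463 CPM, 0.305 to 0.674). The LN held 36.2 CPM (34.0 to 38.4) and 30.1 CPM (28.1 to 32.1). Control tumor cells were therefore 64.9-fold below control LN cells (log2 ratio -6.02, -6.63 to -5.47), and CD8-IFNγRKO tumor cells 71.9-fold below their LN (-6.17, -6.62 to -5.75). After thinning, the log2 ratios were -5.52 and -4.88, and over all deposited barcodes -5.15 and -5.12. In filtered cells thinned to 1600 UMIs, Ifngr2 was found in 0.192% and 0.0946% of tumor cells against 6.14% and 4.97% of LN cells. Between genotypes, the log2 ratio was 0.12 (-0.59 to 0.86) in tumors, below the filter, and 0.27 (0.14 to 0.40) in the LN.

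The receptor chains thus ran in opposite directions between the tissues. Ifngr1 was higher in tumor than in LN in control mice (log2 ratio 1.99, 1.95 to 2.03) and also in CD8-IFNγRKO mice (0.80, 0.75 to 0.85). Ifngr2 passed the filter of these comparisons through its LN level and so had to differ. Tumor and LN cells also differed in makeup: of the genes of naive T cells, Ccr7 was at 61.7 and 66.5 CPM and Lef1 at 21.1 and 22.4 CPM in the CD8-IFNγRKO and control tumors, against 640.5 and 584 CPM and 455 and 399.6 CPM in the LN, S1pr1 and Klf2 were higher in the LN too, and their part in the tissue differences was not tested.

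Ifng was the member with the largest rise from LN to tumor, and its UMIs were spread unevenly over cells. It stood at 424 CPM (420.2 to 429) in CD8-IFNγRKO and 471 CPM (466 to 477) in control tumors, and at 10.4 CPM (9.23 to 11.6) and 12.0 CPM (10.8 to 13.3) in the LN. The tumor level was 40.9-fold and 39.2-fold above the LN in CD8-IFNγRKO and control mice. Between genotypes the log2 ratio was -0.15 (-0.17 to -0.13) in tumors and -0.21 (-0.44 to 0.01) in the LN, so the LN libraries did not differ beyond counting error. In tumors, the 1% of cells with most Ifng held 19.2% (CD8-IFNγRKO) and 16.4% (control) of all its UMIs, and the top 10% held 53.3% and 53.4%. For Socs3 the top 1% held 12.9% and 11.7% and the top 10% held 58.2% and 57.0%. Socs3 was found, without thinning, in only 30.1% and 26.6% of these cells, which by itself gathers its UMIs in few cells. These shares thus do not compare the unevenness of the genes. Without thinning, 74.5% and 71.8% of tumor cells had an Ifng UMI. The variance of Ifng UMIs per cell was 36.3 and 25 times the mean without thinning, which includes the spread of depth. At 1600 UMIs per cell it was 3.89 and 2.97 times the mean, still above counting error. The printed intervals are thus too narrow for this gene. Without thinning it was 2.33 and 4.09 times the mean for Ifngr1, 1.69 and 1.79 for Socs1, and 2.11 and 1.58 for Socs3. At 1600 UMIs per cell it was 1.18 and 1.28, 1.14 and 1.19, and 1.52 and 1.39 in the same order. Their intervals are thus too narrow as well, to a lesser degree. The largest counts in a cell were 574 and 519 UMIs in tumors and 13 and 12 in the LN. At 1600 UMIs per cell, 36.6% and 39.1% of tumor cells and 0.987% and 1.06% of LN cells had an Ifng UMI. Among 22 and 17 LN barcodes with B cell and without T cell genes, with median depths of 2410 and 2448 UMIs, 0 held an Ifng UMI, which allows shares of up to 13.6% and 17.6%. B cells make the IFNγ receptor and SOCS genes themselves (Ifngr1 was found in 27.3% and 29.4% of these barcodes, Ifngr2 in 13.6% and 5.88%, Socs1 in 4.55% and 0, and Socs3 in 13.6% and 23.5%), so the shares of these members in LN have no measured background. Such barcodes were too few in tumors to measure free RNA there.

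Socs1 and Socs3, the feedback inhibitors, differed little between the libraries in comparison. Socs1 was at 58.0 CPM (56.4 to 59.5) in CD8-IFNγRKO and 79.8 CPM (77.5 to 82.1) in control tumors, and at 61.0 CPM (58.2 to 63.9) and 68.2 CPM (65.3 to 71.2) in the LN. The control tumor was highest and the CD8-IFNγRKO tumor lowest, the latter with an interval that overlapped that of its LN. The log2 ratio of CD8-IFNγRKO to control was -0.46 (-0.52 to -0.40) in tumors, within the fold used but beyond it in cells without Tcf7 (-0.52) and in clones of 20 or more cells (-0.62), and -0.16 (-0.25 to -0.07) in the LN. Socs3 was at 46.4 CPM (45.0 to 47.8) and 46.5 CPM (44.8 to 48.3) in the tumors and at 70.6 CPM (67.5 to 73.7) and 79.7 CPM (76.6 to 83.0) in the LN. The tumor libraries did not differ in Socs3 beyond counting error (log2 ratio 0.00, -0.07 to 0.07), whereas with each cell thinned to 1600 UMIs the log2 ratio was 0.40. Both lay below their LN, by a log2 ratio of -0.61 in CD8-IFNγRKO and -0.78 in control mice. The first of these depended on how cells were weighted: after thinning it was 0.13, and the control value was -0.53.

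Between tumor and LN all 5 members passed the filter in either genotype. In control mice Ifng and Ifngr1 were higher and Ifngr2 and Socs3 lower in tumors, beside 28.3% of genes higher and 24.4% lower. In CD8-IFNγRKO mice the same genes were called in the same directions, beside 29.9% and 26.5% of genes, so that calls by this rule were common in this contrast. Beyond a log2 ratio of 1 the shares were 14.7% higher and 9.67% lower in control mice, and 15.9% and 11.9% in CD8-IFNγRKO mice. No share was computed at the size of the Ifng and Ifngr2 ratios.

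**Figure D1:**
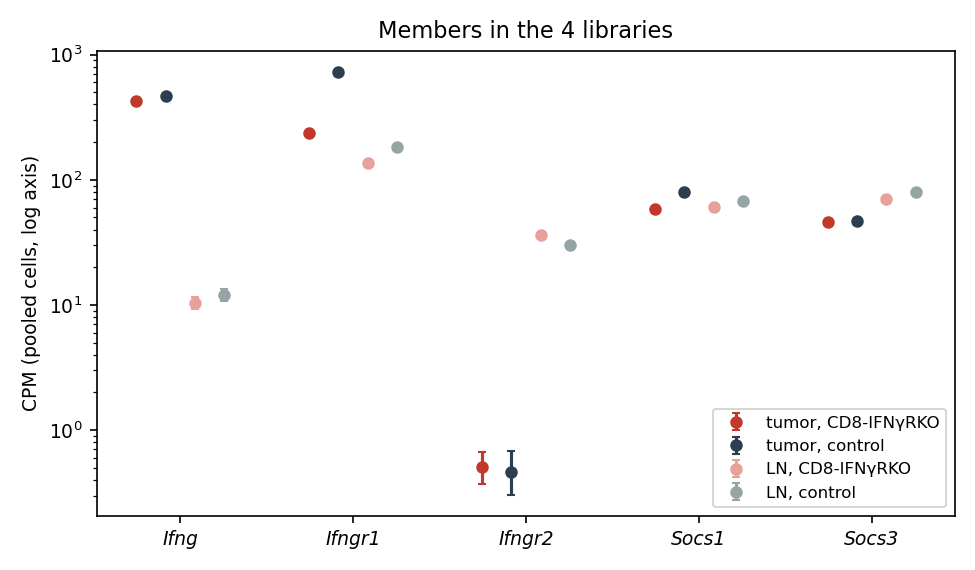
Pooled CPM of each member (log axis) in the 4 libraries; bars are 95% counting intervals. Ifngr1 separates the tumor libraries (238 against 721 CPM), Ifngr2 separates tumor from LN, and Socs1 and Socs3 lie within 46.4 to 79.8 CPM in every library.

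Tcf7 encodes TCF1, the factor that marks stem-like and naive T cells. A Tcf7 UMI was found in 835 of 8610 CD8-IFNγRKO tumor cells (9.70%) and in 370 of 7046 control tumor cells (5.25%). These cells were shallower, with medians of 4511 against 9882 UMIs and 4546 against 6352.5 UMIs in cells without a Tcf7 UMI. In both tumors, cells with a Tcf7 UMI had more Socs3, Socs1 and Ifngr2 and less Ifng.

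Socs3 showed the widest difference among the members that passed the filter. In CD8-IFNγRKO tumors it was at 189.8 CPM in cells with and 37.1 CPM in cells without a Tcf7 UMI (log2 ratio 2.36, 2.25 to 2.46). In control tumors it was at 158 and 41.1 CPM (1.94, 1.79 to 2.09). Over cells with 0, 1, 2 and 3 or more Tcf7 UMIs, Socs3 rose from 37.1 to 150.2, 188 and 228 CPM in CD8-IFNγRKO and from 41.1 to 146, 156 and 177 CPM in control tumors. The difference held within each of 4 classes of cells by depth, at log2 ratios of 1.36 to 1.91 and 1.32 to 2.14.

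Socs1 was at 122 against 53.8 CPM (log2 ratio 1.18, 1.06 to 1.29) in CD8-IFNγRKO and at 132 against 77.3 CPM (0.77, 0.61 to 0.93) in control tumors. Cells with 1, 2 and 3 or more Tcf7 UMIs had 117, 111 and 134 CPM of Socs1 in CD8-IFNγRKO and 146, 120 and 122 CPM in control tumors. Within the classes by depth, from the shallowest to the deepest, the log2 ratio of Socs1 was 1.11, 0.78, 0.84 and 0.76 in CD8-IFNγRKO tumors. In control tumors it was 0.68, 1.10, 0.67 and 0.40 (0.11 to 0.69), the last within the fold. In thinned cells, Socs1 was found in 25.8% of CD8-IFNγRKO tumor cells with a Tcf7 UMI and 9.58% of those without. In control tumors the shares were 16.9% (11.7 to 23.2%) and 13.5% (12.6 to 14.4%), with overlapping intervals.

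The ligand went the other way. Ifng was at 194 CPM in cells with and 439 CPM in cells without a Tcf7 UMI in CD8-IFNγRKO tumors (log2 ratio -1.18, -1.27 to -1.09), and at 260 and 482 CPM in control tumors (-0.89, -1.0 to -0.78). Thinning widened these ratios to -1.48 and -2.05. They narrowed in the deeper cells. Within the 4 classes by depth, from the shallowest to the deepest, Ifng was at -1.61, -1.72, -0.94 and -0.79 in CD8-IFNγRKO tumors. In control tumors it was at -1.85, -3.19, -1.11 and -0.40, the last within the fold. At 1600 UMIs per cell, 15.6% of CD8-IFNγRKO tumor cells with a Tcf7 UMI also had an Ifng UMI, against 37.7% of those without. In control tumors the shares were 10.1% and 39.9%.

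Both receptor chains were higher beside Tcf7. Ifngr1 was at 353 against 230.3 CPM in CD8-IFNγRKO (log2 ratio 0.62, 0.55 to 0.68) and at 915 against 712 CPM in control tumors (0.36, 0.30 to 0.42). After thinning these log2 ratios were 0.86 and 0.69, so that the control value passed the fold. Within the 4 classes by depth they were smaller in all but the shallowest class. From the shallowest to the deepest, Ifngr1 was at 0.54, 0.31, 0.24 and 0.32 in CD8-IFNγRKO tumors. In control tumors it was at 0.59, 0.25, 0.29 and 0.15, so that only the shallowest class of each tumor passed the fold. Ifngr2 was below the filter, yet 36 of its 47 UMIs in CD8-IFNγRKO tumors and 13 of 27 in control tumors lay in the few cells with a Tcf7 UMI. That made 6.32 against 0.125 CPM (log2 ratio 5.66, 4.65 to 6.78) and 4.87 against 0.252 CPM (4.27, 3.07 to 5.47). Both levels beside Tcf7 were still under those of the LN.

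In this split 4 of 5 members passed. Socs1, Socs3 and Ifngr1 were called higher in CD8-IFNγRKO tumors, beside 9.76% of genes, and Socs1 and Socs3 in control tumors, beside 7.27%. Ifng was called lower in both, beside 9.82% and 8.16% of genes. In the LN, where 84.8% of CD8-IFNγRKO and 85.1% of control cells had a Tcf7 UMI, 0 of the members that passed were called, with 0.557% and 0.762% of genes higher and 0.326% and 0.503% lower. There the log2 ratio of Socs3 was 0.29 (0.09 to 0.50) and 0.11 (-0.08 to 0.30), and that of Socs1 was -0.30 (-0.49 to -0.11) and -0.23 (-0.42 to -0.04). Ifng in LN of CD8-IFNγRKO mice was below the filter.

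**Figure D2:**
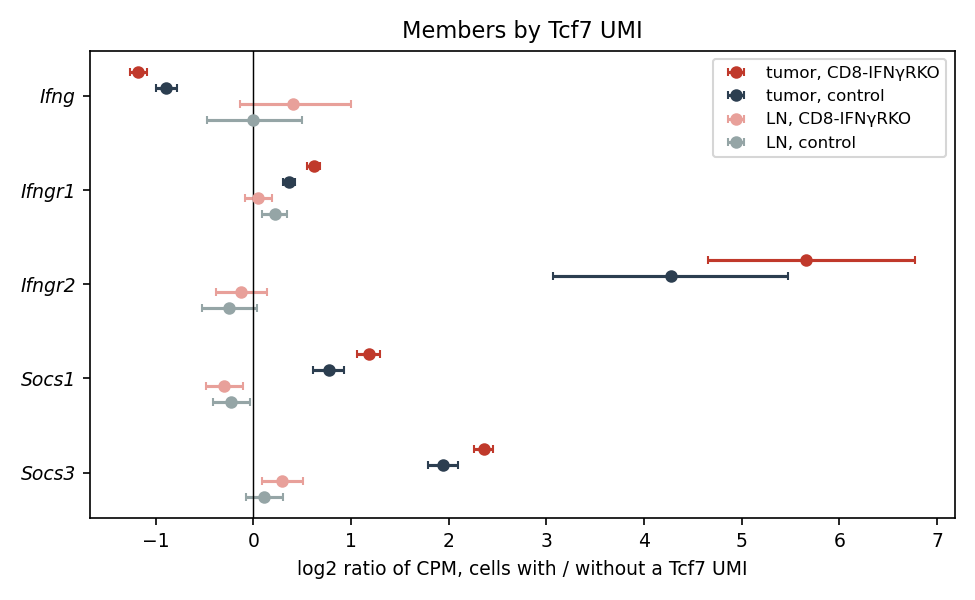
Log2 ratios of CPM between cells with and without a Tcf7 UMI, for each member and library, with 95% counting intervals. In tumors Socs3 (2.36 and 1.94) and Socs1 (1.18 and 0.77) lie to the right and Ifng (-1.18 and -0.89) to the left, while the LN points of Socs1 and Socs3 lie between -0.30 and 0.29.

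Cells with a Tcf7 UMI were divided by Pdcd1, which encodes PD-1. In CD8-IFNγRKO tumors 377 of them had a Pdcd1 UMI and 458 did not, and in control tumors 189 and 181. Cells with both genes had more Ifng, at 251 against 83.8 CPM in CD8-IFNγRKO (log2 ratio 1.58, 1.34 to 1.83) and 323 against 80.6 CPM in control tumors (2.0, 1.61 to 2.42). They had less Socs3, at 110.1 against 343 CPM (-1.64) and 107 against 302 CPM (-1.49), less Socs1, at 90.1 against 183 CPM (-1.02) and 111 against 189.9 CPM (-0.77), and less Ifngr1 (-0.77 and -0.71). Cells with both genes still had more Socs3 than cells without Tcf7 (log2 ratios 1.57 and 1.38). They were also deeper, with medians of 7974 and 8239 UMIs against 3832.5 and 3584. With classes and levels taken at 1600 UMIs per cell (93 and 349 CD8-IFNγRKO and 46 and 132 control cells), Ifng was still higher beside Pdcd1, at 249 against 124 CPM and 245 against 61.6 CPM. Socs3 was at 255 against 378 CPM and 190.2 against 265 CPM, with intervals that overlapped. The Socs1 difference was not found there in CD8-IFNγRKO cells, at 222 against 199 CPM, and was 109 against 161 CPM in control cells. Nor was that of Ifngr1 in control cells, at 1345 against 1321 CPM, and in CD8-IFNγRKO cells it was at 430.1 against 510.4 CPM, with overlapping intervals for each.

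Between genotypes, Ifngr1 was lower in CD8-IFNγRKO cells both with a Tcf7 UMI (log2 ratio -1.37, -1.46 to -1.29) and without one (-1.63, -1.65 to -1.60). Socs1 was at -0.11 (-0.30 to 0.07) with a Tcf7 UMI and at -0.52 (-0.58 to -0.46) without. Socs3 was at 0.26 (0.10 to 0.43) and -0.15 (-0.23 to -0.07), and Ifng at -0.42 (-0.56 to -0.28) and -0.13 (-0.15 to -0.11). Ifngr1 was called lower in both classes and Socs1 only without Tcf7, beside 4.21% and 5.34% of genes lower. 0 of the members were called higher, beside 6.3% and 8.07% of genes. Whether the genotype difference of a member differed between the classes was not tested.

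Ifng was detected in 6411 of the CD8-IFNγRKO tumor cells and not in 2199, and in 5061 of the control tumor cells and not in 1985. Cells with Ifng were much deeper, with medians of 11202 against 4595 UMIs and 7658 against 3962. Over all cells, those with Ifng had less Ifngr1, Socs1 and Socs3. Ifngr1 was at 224 against 319 CPM (log2 ratio -0.51, -0.56 to -0.46) in CD8-IFNγRKO and 684 against 924 CPM (-0.43, -0.47 to -0.40) in control tumors. Socs3 was at 37.3 against 101 CPM (-1.43, -1.53 to -1.34) and 40.9 against 77 CPM (-0.91, -1.04 to -0.79). Socs1 was at 53.7 against 83.2 CPM (-0.63) and 77.7 against 91.5 CPM (-0.24).

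The split moved with depth. Within 4 classes of cells by depth, from the shallowest to the deepest, the log2 ratio of Socs3 was -1.20, -0.70, -0.18 and 0.11 in CD8-IFNγRKO and -0.67, -0.54, 0.20 and -0.24 in control tumors. That of Socs1 was -0.70, -0.34, 0.03 and 0.40 in CD8-IFNγRKO and -0.14, 0.22, 0.30 and 0.57 in control tumors. Its direction turned beyond counting error in CD8-IFNγRKO alone, since the shallowest control class had an interval of -0.40 to 0.12. Ifngr1 stayed on the lower side in each class, at -0.49 to -0.04 and -0.24 to -0.12. The CD8-IFNγRKO class at -0.04 had an interval of -0.14 to 0.06. With classes and levels taken from cells thinned to 1600 UMIs, Socs3 was at -0.60 and -0.20, Ifngr1 at -0.18 and -0.15, and Socs1 at -0.23 and 0.26. Among cells without a Tcf7 UMI, Socs3 was at -0.67 and -0.52.

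Before these adjustments, 3 of the 4 other members passed the filter. Ifngr1, Socs1 and Socs3 were called lower in CD8-IFNγRKO and Socs3 in control tumors, beside 4.03% and 2.3% of genes, and 0 were called higher, beside 1.8% and 2.97%. Ifngr2 was below the filter: 34 of its 47 UMIs in CD8-IFNγRKO tumors and 12 of its 27 in control tumors lay in cells without an Ifng UMI (log2 ratios -3.97, -5.02 to -3.01, and -2.13, -3.33 to -0.91).

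**Figure D3:**
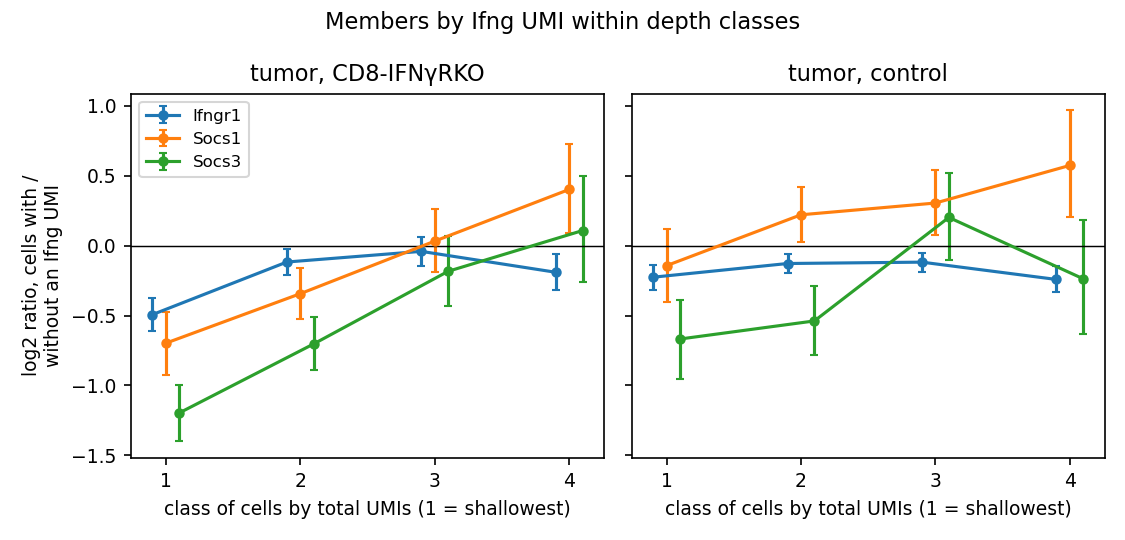
Log2 ratios of CPM between tumor cells with and without an Ifng UMI, within 4 classes of cells by total UMIs (1 is the shallowest), with 95% counting intervals. Socs3 goes from -1.20 to 0.11 and Socs1 from -0.70 to 0.40 across the classes of the CD8-IFNγRKO tumor, and Ifngr1 stays below 0 in all classes of both tumors.

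In the LN, 162 CD8-IFNγRKO and 172 control cells had an Ifng UMI, and there the receptor chains moved apart. Of these cells, 107 and 102 held only 1 Ifng UMI, and free Ifng RNA was bounded only at 13.6% and 17.6% of barcodes. Ifngr1 was higher in cells with Ifng, at 178 against 135 CPM (log2 ratio 0.39, 0.16 to 0.61) and 263 against 178 CPM (0.56, 0.39 to 0.73). Ifngr2 was lower, at 13.5 against 36.9 CPM from 13 UMIs (-1.45, -2.37 to -0.67) and 6.88 against 31.0 CPM from 8 UMIs (-2.17, -3.39 to -1.19). Ifngr2 was thus beyond the fold on the lower side in both libraries, beside 10.5% and 6.92% of genes, though in control LN it passed the filter only through the class without Ifng and so had to differ, and Ifngr1 higher in the control LN alone, beside 6.39% (6.03% in the CD8-IFNγRKO LN). Socs1 was at 0.17 and -0.04, and Socs3 at 0.21 and 0.44. The same LN cells had more Tbx21, which encodes the T-bet factor that drives Ifng (log2 ratios 2.76, 2.10 to 3.38, and 3.01, 2.45 to 3.54). Tbx21 was at 28.0 against 4.13 CPM from 27 UMIs and 33.5 against 4.17 CPM from 39 UMIs. It passed the filter only through the class with Ifng and so had to differ. The cells also had more Eomes, a related factor (1.46 and 1.63), and more of the chemokines Xcl1 (3.45 and 3.53) and Ccl5 (3.24 and 3.22). LN cells with Ifng were deeper than the rest, with medians of 5457.5 against 3838 and 6276 against 4023 UMIs.

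The remaining Ifngr1 UMIs of the CD8-IFNγRKO tumor were used for a last split. Over all UMIs, tumor cells with an Ifngr1 UMI had less Ifng, Socs1 and Socs3 than cells without one. The log2 ratio of Ifng was -0.35 (-0.39 to -0.31) in CD8-IFNγRKO and -0.50 (-0.59 to -0.40) in control tumors, that of Socs1 -0.24 and -0.36, and that of Socs3 -0.40 and -0.26. At 1600 UMIs per cell, Socs1 and Socs3 turned the other way. Socs1 was found in 11.7% of CD8-IFNγRKO tumor cells with an Ifngr1 UMI and 9.75% of those without, and Socs3 in 12.5% and 8.40%. In control tumors the shares were 14.4% and 11.7% for Socs1 and 8.42% and 6.87% for Socs3, the latter with overlapping intervals. Ifngr2, below the filter, had 42 UMIs in cells with and 5 in cells without an Ifngr1 UMI in CD8-IFNγRKO (log2 ratio 0.16, -1.17 to 1.86), and 27 and 0 in control tumors. 0 of the 3 members that passed were called, beside 1.26% and 3.09% of genes higher and 0.546% and 5.16% lower. Of the 18 interferon-gamma targets, 16 passed in CD8-IFNγRKO and 17 in control tumors, and 0 were called, beside the same shares of all genes. Their median log2 ratio was -0.05 in CD8-IFNγRKO tumors, where the median of all genes was -0.01, and -0.01 in control tumors, where it was -0.02. Cells without an Ifngr1 UMI were shallower, with medians of 4857 UMIs in CD8-IFNγRKO and 1299 in control tumors.

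Clones were defined by both TCR chains, which were found for 5925 of the 8610 CD8-IFNγRKO tumor cells (68.8%, 429 clones) and for 4270 of the 7046 control tumor cells (60.6%, 259 clones). Cells seen once, 364 and 182, were set against cells of clones with 20 or more cells, 5349 and 3727. The single cells had more Socs3, Socs1, Ifngr1 and Ifngr2 and less Ifng, with Ifngr2 below the filter of 10 CPM in both tumors. The share of all genes past the fold was not computed for this comparison, so these differences have no background beside them.

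Socs3 was at 323 CPM in single cells and 35.9 CPM in large clones of the CD8-IFNγRKO tumor (log2 ratio 3.17, 3.03 to 3.30), and at 196 and 41.0 CPM in the control tumor (2.25, 2.02 to 2.48). Socs1 was at 177 against 52.9 CPM (1.75, 1.57 to 1.91) and 166 against 81.1 CPM (1.03, 0.79 to 1.27). Ifng was at 80.1 against 446 CPM (-2.48, -2.73 to -2.24) and 131 against 493 CPM (-1.92, -2.19 to -1.66).

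Both receptor chains were higher in single cells. Ifngr1 was at 487 against 227 CPM (1.10, 1.0 to 1.20) in CD8-IFNγRKO and at 1114 against 730.5 CPM (0.61, 0.52 to 0.70) in control tumors. Ifngr2 had 23 UMIs in single cells and 4 in large clones of the CD8-IFNγRKO tumor (13.2 against 0.065 CPM, log2 ratio 7.66, 6.11 to 9.65). In the control tumor it had 7 and 2 UMIs (7.69 against 0.071 CPM, 6.75, 4.36 to 10.05). In clones of 2 to 4 and 5 to 19 cells it had 0 UMIs in either tumor, which allows up to 7.31 and 2.24 CPM in CD8-IFNγRKO and 7.72 and 1.65 CPM in control tumors.

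Tcf7 moved with clone size as well. Tcf7 was at 473 CPM in single cells and 4.10 CPM in large clones of CD8-IFNγRKO tumors and at 354 and 4.22 CPM in control tumors. The medians of depth were 3997.5 against 10508 UMIs and 4041 against 6347, and the parts of cell state and depth in the clone differences were not tested. Within the large clones alone, the genotype log2 ratio was -1.69 for Ifngr1 and -0.62 for Socs1.

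**Figure D4:**
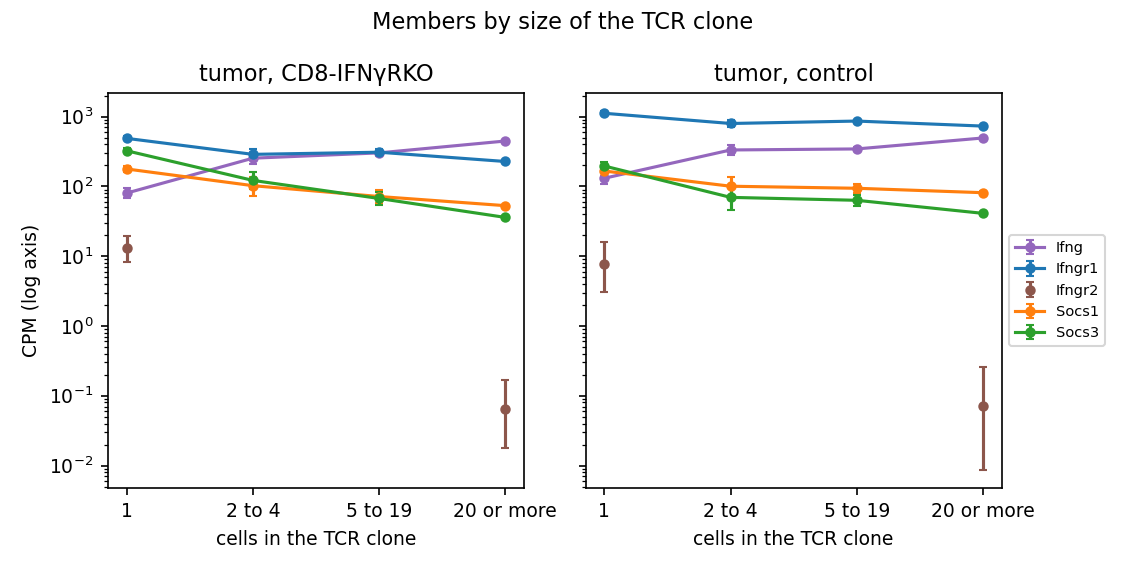
Pooled CPM (log axis) of each member in tumor cells by the number of cells in their TCR clone, with 95% counting intervals; Ifngr2 is not drawn where it had 0 UMIs. Socs3 falls from 323 to 35.9 CPM and Ifng climbs from 80.1 to 446 CPM between single cells and clones of 20 or more cells of the CD8-IFNγRKO tumor.

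Expanded clones also differed among themselves. Over the 23 CD8-IFNγRKO and 17 control clones with at least 30 cells, Ifng ran from 204 to 1058 CPM (median 364) and from 233 to 596 CPM (median 377). The highest value was set by 1 cell, which held 574 of the 1377 Ifng UMIs of its clone of 94 cells (41.7%). Ifngr1 ran from 190.3 to 448 CPM and from 415 to 1341 CPM, Socs1 from 40.6 to 136 CPM and from 42.3 to 199 CPM, and Socs3 from 25 to 144 CPM and from 34.9 to 208 CPM. The clones with most Socs1, Socs3 and Ifngr1 were among the shallower ones: in the CD8-IFNγRKO tumor, a clone of 149 cells with a median of 3211 UMIs was highest in Socs1 and Socs3, and one of 71 cells with a median of 3340 UMIs was highest in Ifngr1.

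Gates of marker genes on cells thinned to 1600 UMIs gave the level of each member in sets of tumor cells. Over all thinned cells Ifng was at 404 CPM in CD8-IFNγRKO and 439.8 CPM in control tumors. It was higher in cells with UMIs of both Xcl1 and Crtam, genes of recently activated T cells, at 1506 CPM (117 cells) and 938 CPM (30 cells). Thinned tumor cells held up to 69 and 46 Ifng UMIs each, so single cells can weigh heavily in gates of this size. Ifng stood at 517 and 545 CPM in cells with an early TCR response gene (Nr4a1, Egr1 or Egr2).

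Cells with at least 2 of Ifit1, Ifit3, Rsad2 and Isg15, genes induced by interferons, had 164 and 169 CPM of Socs1, against 73.2 and 98.9 CPM over all thinned cells, and 183 and 101 CPM of Socs3, against 78.0 and 59.3 CPM. They had 376 and 909 CPM of Ifngr1, against 283 and 836 CPM over all. In dividing cells, with at least 3 of Mki67, Top2a, Ccnb1, Cenpf and Birc5, Socs3 was lower, at 38.0 and 29.7 CPM, while Ifng was at 365 and 362 CPM.

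Genes downstream of the receptor were lower in CD8-IFNγRKO tumors in part. Of the 18 interferon-gamma targets 16 passed the filter, 3 were called lower and 0 higher, beside 5.0% and 7.72% of all genes, and their median log2 ratio was -0.26, beside 0.02 for all genes. Irf1, which encodes a transcription factor induced by interferons, was at 191 against 320.2 CPM (-0.75, -0.78 to -0.72). Cd274, which encodes PD-L1, was at -0.61 (-0.68 to -0.53), and the IFNγ-induced GTPase Igtp at -0.53 (-0.58 to -0.48). The guanylate-binding protein gene Gbp2 was at -0.37, and the immunoproteasome genes Psmb8 and Psmb9 and the peptide transporter gene Tap1 were at 0.05, 0.17 and -0.06. In cells with a Tcf7 UMI, 1 of 17 targets that passed was called lower, a share near the 4.21% of all genes (Iigp1, -0.58, -1.15 to 0.01, an interval that includes 0), and the median was -0.07 beside 0.03 for all genes.

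In the LN, 15 targets passed and Gbp2 alone was called, at 47.2 against 80.9 CPM in CD8-IFNγRKO and control mice (log2 ratio -0.78, -0.88 to -0.68), beside 0.407% of all genes lower and 0.231% higher. The median of the targets was -0.19 beside 0.03 for all genes. Iigp1, below the filter, was at 2.25 against 6.75 CPM (-1.58). Of the kinases, STATs and phosphatases next to the receptor, 10 of 10 passed in tumors and 0 were called (median -0.16), beside 5.0% of all genes lower and 7.72% higher.

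**Figure D5:**
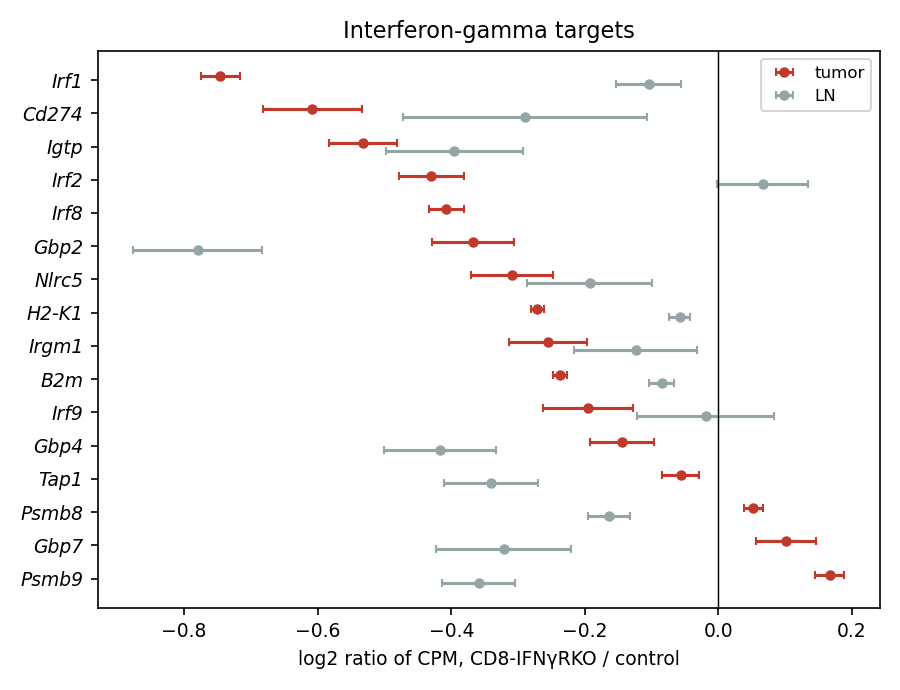
Log2 ratios of CD8-IFNγRKO to control CPM for the interferon-gamma targets that passed the filter, in tumor and LN, with 95% counting intervals. Irf1 (-0.75), Cd274 (-0.61) and Igtp (-0.53) in tumors and Gbp2 (-0.78) in the LN lie beyond -0.5.

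Some targets also rose beside Tcf7 in tumors. In CD8-IFNγRKO cells with a Tcf7 UMI, 6 of 16 targets were called higher and 1 lower, beside 9.76% and 9.82% of all genes. In control cells 3 of 17 were called higher and 1 lower, beside 7.27% and 8.16%. Gbp2 was higher in both (log2 ratios 1.16 and 1.17), as was Irgm1, another IFNγ-induced GTPase (0.77 and 0.64), and Irf8 was lower (-0.88 and -0.83). Irf1, Irf9, Igtp and Cd274 were called in CD8-IFNγRKO alone (0.73, 0.51, 0.99 and 0.53, against 0.34, 0.11, 0.41 and 0.16 in control tumors), and Iigp1 in control tumors alone, where it passed the filter only through the class with Tcf7. The medians were 0.22 and 0.12 beside -0.04 and -0.03 for all genes. Of the kinases and STATs, Jak2 was called higher in both tumors (0.55 and 0.65), and Jak1 (0.57) and Stat2 (0.67) in CD8-IFNγRKO, in the same comparisons.

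Of the 6 other SOCS genes, Cish and Socs4 passed the filter between the tumor genotypes, and Cish, which is induced by interleukin-2 and TCR signals, was called lower in CD8-IFNγRKO (67.2 against 106 CPM, log2 ratio -0.65, -0.70 to -0.60). Socs6 was higher beside Tcf7 in both tumors (0.82 and 0.71), having passed the filter only through that class. Cish was higher in tumor than in LN (3.28 in CD8-IFNγRKO and 4.39 in control mice), beside 29.9% and 28.3% of all genes. It passed the filter of these comparisons only through its tumor level and so had to differ.

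The genes most like each member were ranked by the log2 ratio between thinned cells with and without a UMI of that member, taking the lower value of 2 libraries. For Ifng, over 2679 genes of the tumor libraries, these were the chemokines Ccl3 (1.31 in CD8-IFNγRKO and 1.63 in control) and Ccl4 (0.97 and 1.38), followed by Phlda1, Tnf and Csf1. Because Ccl3 was picked by that ratio in these same thinned cells, it had to be higher with Ifng than without, and its levels by class are a description. Ccl3 climbed with each class of Ifng UMIs, from 246 CPM at 0 to 394 at 1, 730.4 at 2 to 4, 2257 at 5 to 9 and 5718 at 10 or more UMIs in the CD8-IFNγRKO tumor. In the control tumor it went from 228 to 437, 853, 2370.05 and 6719 CPM. Classes of 10 or more held 27 and 20 cells.

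For Socs3 the first gene was Tcf7 (2.51 and 2.25), followed by Ccr7 (1.65 and 1.53), the chemokine receptor of naive and central memory cells, Ifit3, Klf2 and Emb. For Socs1 they were the interferon-stimulated genes Ifit3 (1.44 and 1.67) and Ifit1 (1.39 and 0.91), then Socs3 (0.87 and 0.95), Gpr183 and Irf7. At 1600 UMIs per cell, 16.2% of CD8-IFNγRKO tumor cells with a Socs1 UMI also had a Socs3 UMI, against 9.06% of those without, and in control tumors 11.7% and 7.35%. For Ifngr1 they were Il7r (0.84 and 0.67), Cxcr3, Zfp36l2, Gramd3 and Pdcd4. For Ifngr2, over 2554 genes of the LN libraries, they were Usp15 (0.57 and 0.54), Zc3h7a, Ap3s1, Qars and Gm20186.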

How the data were processed

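Per the labels and the study's methods, CD8 T cells were run with 10x 5′ chemistry, and the authors deposited tables of UMI counts by gene and cell barcode, not normalized, and the contigs of the T cell receptors. Cell Ranger 6.0.0 and mm10 are named in the submitters' processing notes. How the barcodes were filtered before deposit is not given in the sources used here. The members and gene lists were chosen with earlier results of these data known.

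Cells needed 200 to 6000 detected genes, no more than 3% of UMIs from mitochondria, under 20% from any single gene, and 1 or more UMIs each of Cd2, Cd8a and Cd8b1, and those with 3 or more of 8 myeloid genes were removed. No doublet caller was run. Cells above the 95th percentile of UMIs were left out as an alternative instead. Levels are CPM of pooled cells with exact Poisson intervals, log2 ratios are of these levels without a pseudocount and with exact conditional binomial intervals, and shares have Clopper-Pearson intervals. All intervals are 95% and cover counting error only. A limit for a count of 0 is 3 counts.

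Cells were thinned to 1600 UMIs with a fixed seed, which left out 277 tumor and 41 LN cells of CD8-IFNγRKO mice and 701 and 237 of control mice as too shallow. Thinning to 3000 UMIs was an alternative. A gene was called where its log2 ratio was beyond 0.5 and the mean of both sides was at least 10 CPM, with 20 or more UMIs. The 3 mice of a library were not tagged, so cells could not be tied to mice. With 1 library per group no test was run. Named genes were the members, genes of 7 lists (18 interferon-gamma targets, 10 receptor-proximal genes, 6 other SOCS genes, 15 cytokine receptors, 8 effector cytokines, 5 regulators of Ifng and 9 early TCR response genes), the genes of the splits and gates, and the 5 genes most like each member, of those with a mean of at least 50 CPM in both libraries. A clone was the cells that shared V gene, J gene and CDR3 bases of both TCR chains. The counting of the intervals was tested on simulated Poisson counts, which hold no extra spread between cells. Scripts ran in Python 3.11.15 with pandas 2.3.3, scipy 1.17.1, matplotlib 3.10.9 and numpy 2.4.6, and sequences came from RefSeq tables of GRCm38.p6. Results of some listed genes are not reported here.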

Additional observations from a re-analysis of the deposited data

Results flagged for a closer look

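The split by Tcf7 UMI ran in opposite directions for Socs1 in the tissues. Its log2 ratio was 1.18 in CD8-IFNγRKO and 0.77 in control tumors, and -0.30 and -0.23 in the corresponding LN. The split by Ifng UMI did so for Ifngr1, at -0.51 and -0.43 in CD8-IFNγRKO and control tumors and at 0.39 and 0.56 in the LN. These were singled out because both libraries of a tissue lay on 1 side of 0 and both of the other opposite. Every interval also had to exclude 0. Socs3 by Ifng UMI (-1.43 and -0.91 in tumors, 0.21 and 0.44 in LN) also changed side. So did Ifngr2 by Tcf7 UMI (5.66 and 4.27 in tumors, below the filter, and -0.13 and -0.25 in LN). They were left out because LN intervals included 0, in CD8-IFNγRKO mice for Socs3 and in both genotypes for Ifngr2. All of these ratios are over all UMIs, and cells with Ifng were deeper than the rest in both tissues. Cells with a Tcf7 UMI were shallower than the rest in tumors but deeper in the LN. Their LN medians were 3947 against 3483 UMIs in CD8-IFNγRKO and 4161 against 3463.5 UMIs in control mice. Within the classes by depth, Ifngr1 by Ifng UMI was at -0.49 to -0.04 in CD8-IFNγRKO and -0.24 to -0.12 in control tumors. Socs1 by Tcf7 UMI was at 0.76 to 1.11 and 0.40 to 1.10 there. In thinned control tumor cells, the shares with Socs1 had overlapping intervals between cells with and without a Tcf7 UMI. The part of depth in the opposite directions was not tested. The differences between tissues were not tested either, since each tissue and genotype had 1 library.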

How the results depend on the processing

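With 1 library per group, no replicate could be left out. No paired analysis was possible because the groups have 1 library each and no result comes from a test. The Ifngr1 difference in LN stayed between -0.46 and -0.37 under all alternatives. In tumors the Ifngr1 log2 ratio was -1.55 without the filter on T cell genes and over all barcodes, -1.56 after thinning and -1.69 in clones of 20 or more cells, an alternative chosen after seeing the data, as was the restriction to cells without Tcf7.

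For Ifngr2, tumor against LN in control and CD8-IFNγRKO mice, the log2 ratios were -5.42 and -5.33 without the filter on T cell genes, -5.15 and -5.12 over all barcodes, -8.72 and -9.12 in the clones, and -4.41 and -4.63 with 1 CPM added. After thinning the CD8-IFNγRKO value was -4.88. For Socs3 by Tcf7 UMI, CD8-IFNγRKO and control, they were 2.49 and 2.19 after thinning and 1.57 and 1.38 for Tcf7 with Pdcd1. In CD8-IFNγRKO the value was 2.51 for 2 or more Tcf7 UMIs and 1.91, 1.89, 1.90 and 1.36 in the depth classes. In control tumors it was 2.12 without the deepest cells and 2.14, 1.59 and 1.32 in the deeper depth classes.

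For Socs3 by Ifng UMI, the CD8-IFNγRKO log2 ratio was -0.60 after thinning, -1.56 for 3 or more Ifng UMIs, -0.67 in cells without Tcf7, and -1.20, -0.70, -0.18 and 0.11 by depth class. The control values were -0.20 after thinning, -0.52 without Tcf7, and -0.67, -0.54, 0.20 and -0.24 by depth class. In the same split Socs1 in CD8-IFNγRKO tumors was at 0.032 and 0.40 in the deeper classes, and Socs3 in CD8-IFNγRKO tumor against LN was at 0.13 after thinning. Socs1 between tumor genotypes, at -0.46 and within the fold, was at -0.62 in the clones and at -0.52 in cells without Tcf7. The cause was not tested. Between tumor genotypes 954 genes lay beyond a log2 ratio of 0.5, against 141 beyond 1 and 365 with at least 50 CPM. Ifngr2 in tumors rests on few UMIs, and rare cells with it were not measurable at this depth.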

Other observations

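Receptors of other cytokines also differed between tumor and LN in control mice, where 10 of 15 listed genes were called higher and 4 lower in tumor cells, beside 28.3% and 24.4% of all genes. Of these, Il12rb2, Il10ra, Il2ra, Il12rb1, Il18rap, Il6ra and Il6st passed the filter only through the tissue where they were high and so had to differ, and their values are a description. Il12rb2, the inducible chain of the interleukin-12 receptor, was at 111 against 1.14 CPM (log2 ratio 6.61, 6.13 to 7.14), and Il10ra, the ligand-binding chain of the interleukin-10 receptor, at 231 against 7.12 CPM (5.02, 4.83 to 5.22). Among the lower genes, Il6ra, the interleukin-6 receptor, was at 0.669 against 76.98 CPM (-6.85, -7.34 to -6.39), and Il6st, which encodes gp130, was at 7.76 against 68.1 CPM (-3.13, -3.28 to -2.99). In CD8-IFNγRKO mice 7 were called higher and 4 lower, beside 29.9% and 26.5% of all genes, and the log2 ratio of Il6ra was -5.87 (-6.14 to -5.62). Beside Tcf7 in tumors, the listed receptors went both ways. In CD8-IFNγRKO mice 4 of the 14 that passed were called higher and 3 lower, beside 9.76% and 9.82% of all genes. In control mice 3 of 14 were called higher and 4 lower, beside 7.27% and 8.16%. Il6st was among the higher ones, having passed the filter only through the class with Tcf7 (1.77 in CD8-IFNγRKO and 1.75 in control mice). So was Il7r, the interleukin-7 receptor (2.39 and 1.84).

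Between tumor genotypes, 4 of 13 cytokine receptor genes that passed the filter were lower in CD8-IFNγRKO cells and 0 higher, beside 5.0% and 7.72% of all genes. They were Ifnar1, a chain of the type I interferon receptor (50.5 against 86.3 CPM, log2 ratio -0.77), Il21r (-0.72), Il18rap (-0.60) and Il12rb2 (-0.59). Of 7 early TCR response genes that passed, Nr4a1, Nr4a2, Nr4a3 and Egr1 were lower in CD8-IFNγRKO cells (-1.07, -0.99, -1.20 and -1.26), and Myc and Cd69 were higher (1.17 and 0.59), beside the same shares. In the LN, 0 of the 10 receptors and 0 of the 6 early response genes that passed were called, beside 0.231% of all genes higher and 0.407% lower.

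Of the 6 effector genes that passed the filter, Xcl1 was higher in the CD8-IFNγRKO tumor (150.0 against 42.6 CPM, log2 ratio 1.82), and Ccl5 and Tnf were lower (-1.57 and -0.63). Of the regulators of Ifng, Stat4 was called lower (-0.59) and the other 4 were within the fold. Over all genes in this comparison, 7.72% were higher and 5.0% lower.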
